A study of Homo sapiens with 12 samples.

Results

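Selenoproteins are enzymes and transport proteins that carry selenocysteine, the selenium analogue of cysteine. Described here are 10 of them, GPX1, GPX2, GPX4, TXNRD1, MSRB1, SELENOP, SELENOW, SELENOH, SELENOT and SELENOK, chosen by gene symbol from the 10945 rows of a count table that carried a symbol. All 10 had a row. Of 25 human selenoproteins listed, 20 were measured, and the other 10 of these are used for comparison.

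The libraries were 12 QuantSeq 3′ mRNA libraries of HepG2, a line derived from a human liver cancer that stands in for hepatocytes, labelled wild type. Each of 4 culture media had 3 libraries: Plasmax, a medium modelled on human plasma, high-glucose DMEM (HGDMEM), low-glucose DMEM (LGDMEM) and EMEM, in which the line was also maintained. Cells were seeded in EMEM and changed to their medium 24 h later. They were harvested after 96 h with a medium change at 48 h, and every medium held 10% heat-inactivated serum. The published recipe of Plasmax includes selenite as a trace element and those of DMEM and EMEM do not, serum brings selenium to all 4 media, and selenium itself was not measured. Many other components differ as well, so a difference between Plasmax and another medium belongs to the whole formulation. Whether the 3 libraries of a medium were separate cultures is not stated in the labels, and p-values therefore rest on a spread that may be technical.

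Selenocysteine is inserted at an in-frame UGA codon, which elsewhere ends translation. Insertion needs a hairpin in the 3′ untranslated region, the SECIS element, a binding protein, a dedicated elongation factor and a transfer RNA made with selenium. When selenium is short, cells are known to keep some selenoproteins and let others go, and the mRNAs of the sensitive ones can be removed by nonsense-mediated decay, which recognises a stop codon lying well upstream of the last exon junction. The liver is the main source of SELENOP, which carries selenium in plasma to other tissues.

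The codon that defines the family is given for the 6 members called in all 3 comparisons with Plasmax, and for GPX2 beside the other glutathione peroxidases. Each line runs 5′ to 3′ on the coding strand, and capitals mark the selenocysteine TGA (the first of them for SELENOP). Sequences and positions come from GENCODE release 29 on GRCh38, whereas the submitters' processing notes name hg19, so these coordinates are not those of the build used for counting.
GPX1: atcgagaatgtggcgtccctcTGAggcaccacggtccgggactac
GPX2: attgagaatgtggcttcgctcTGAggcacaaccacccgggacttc
GPX4: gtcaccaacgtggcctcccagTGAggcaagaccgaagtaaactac
TXNRD1: agcatcctccaggctggctgcTGAggttaa
MSRB1: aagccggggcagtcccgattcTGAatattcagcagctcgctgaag
SELENOP: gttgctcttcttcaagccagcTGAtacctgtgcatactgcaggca
SELENOW: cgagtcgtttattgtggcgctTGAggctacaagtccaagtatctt

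These codons lie in coding exons at chr3:49358132-49358134 for GPX1 (minus strand), chr14:64942607-64942609 for GPX2 (minus), chr19:1105403-1105405 for GPX4 (plus), chr12:104348413-104348415 for TXNRD1 (plus), chr16:1940812-1940814 for MSRB1 (minus), chr5:42808177-42808179 for SELENOP (minus) and chr19:47780732-47780734 for SELENOW (plus). The base after the TGA was G in 7 of the 10 members, and A in MSRB1, T in SELENOP and C in SELENOH. SELENOP has 10 selenocysteine codons and every other member has 1. In TXNRD1 the codon is number 498 of 499, so its line ends with the true stop codon.

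The members went in both directions in Plasmax. GPX1, TXNRD1 and SELENOW rose in Plasmax against each of the other 3 media, whereas SELENOP, GPX4 and MSRB1 fell against each of them. SELENOH rose against EMEM, and GPX2, SELENOT and SELENOK passed the threshold in no comparison. The test was edgeR's quasi-likelihood test over all 10945 genes with Benjamini-Hochberg adjustment at 0.05, and a gene past it is here said to be called.

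Against EMEM, 7 members were called, 4 higher and 3 lower, where 22.1% of all genes tested were called (10.0% higher and 12.1% lower). Against LGDMEM 6 members were called, 3 each way, beside 21.2% of all genes (9.48% higher and 11.7% lower). Against HGDMEM 6 were called, again 3 each way, beside 26.9% (12.8% higher and 14.1% lower). Over the 4 media together 6 members were called, beside 22.9%. The 10 were listed with earlier results of these data known, and the 3 comparisons share the Plasmax libraries, so they are not 3 independent observations.

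The median log2 fold change of the members was 0.27 against EMEM, 0.05 against LGDMEM and 0.00 against HGDMEM, beside 0.02, 0.00 and 0.01 over all genes. Their median absolute log2 fold change was 0.73, 0.83 and 0.77 in the same order, beside 0.38, 0.38 and 0.42 over all genes. The members thus spread to both sides of 0 with little shift of the median.

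**Figure D1:**
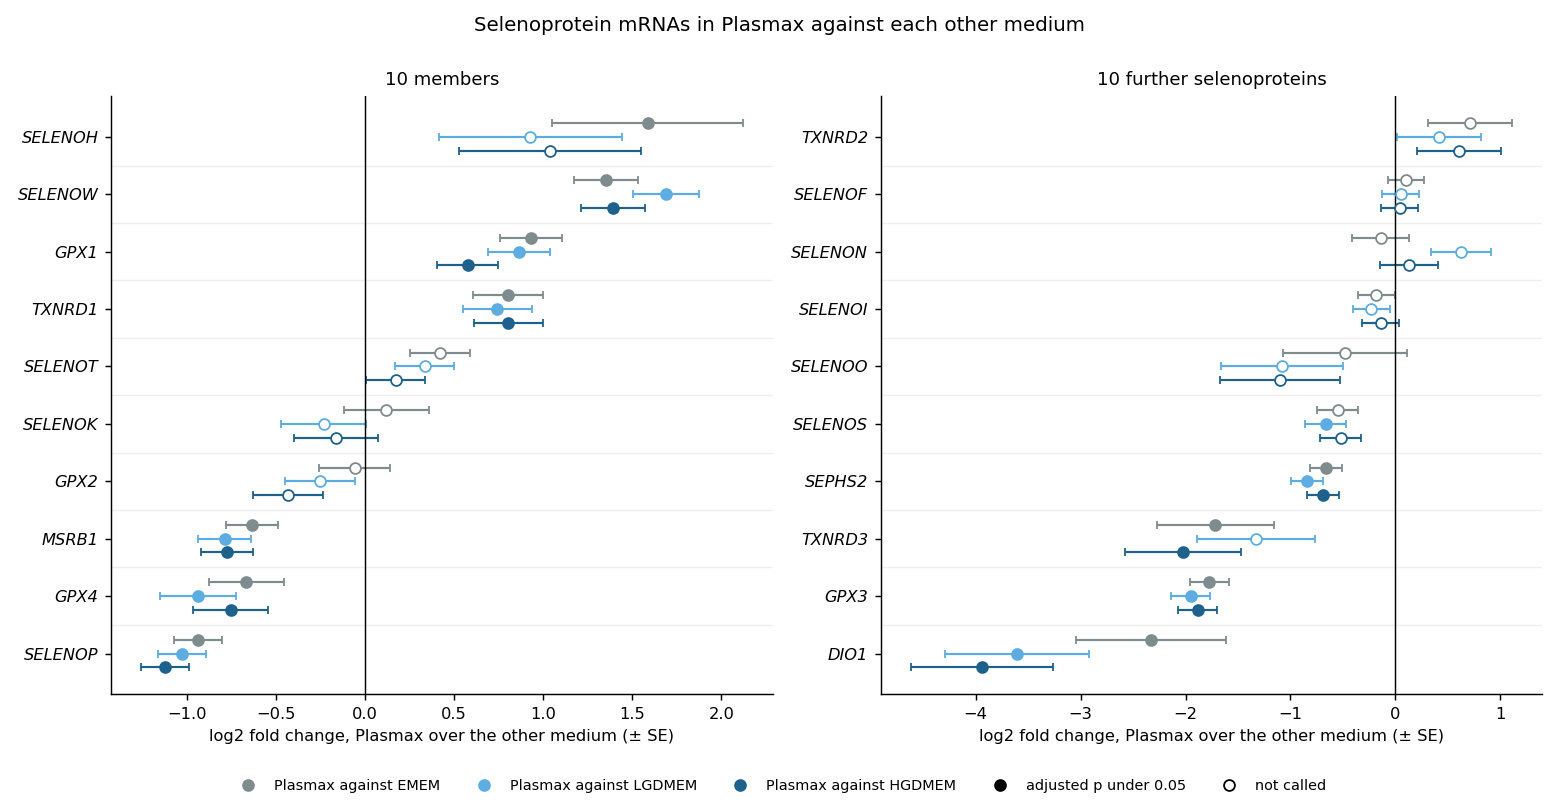
Log2 fold change (± SE) of Plasmax over EMEM, LGDMEM and HGDMEM for the 10 members (left) and the 10 further measured selenoproteins (right), with filled points for an adjusted p under 0.05. Members stand on both sides of 0, from −0.94 for SELENOP to 1.59 for SELENOH against EMEM, while each called point among the further selenoproteins lies below 0.

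Among the peroxidases, GPX1, the abundant cytosolic glutathione peroxidase that reduces hydrogen peroxide, was higher in Plasmax. Its level was 57.7, 57.6 and 64.7 CPM in Plasmax, against 39.2, 39.7 and 41.7 CPM in HGDMEM, 36.3, 36.0 and 26.5 CPM in LGDMEM and 35.0, 26.7 and 33.0 CPM in EMEM. CPM are counts scaled to a common library size by TMM, a factor that evens out library composition. All Plasmax libraries lay above all others, and the HGDMEM libraries also lay above those of LGDMEM and EMEM. The log2 fold change of GPX1 was 0.93 (SE 0.17, adjusted p = 0.000912, edgeR) against EMEM, 0.86 (SE 0.17, adjusted p = 0.00168) against LGDMEM and 0.58 (SE 0.17, adjusted p = 0.0175) against HGDMEM. The call against HGDMEM was lost without Plasmax 3 (adjusted p = 0.0649), HGDMEM 1 (0.0562) or HGDMEM 2 (0.0523).

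GPX4, the peroxidase that reduces phospholipid hydroperoxides in membranes and protects cells from ferroptosis, was lower in Plasmax, with 1 library apart. It had 154, 317 and 158 CPM in Plasmax, against 421, 338 and 303 CPM in HGDMEM, 421, 420 and 366 CPM in LGDMEM and 382, 310 and 308 CPM in EMEM. Plasmax 2 was 2.01 times the higher of the other Plasmax libraries and overlapped with HGDMEM and EMEM, whereas no Plasmax library reached LGDMEM. The log2 fold change of GPX4 was −0.67 (SE 0.21, adjusted p = 0.0297, edgeR) against EMEM, −0.94 (SE 0.21, adjusted p = 0.0039) against LGDMEM and −0.76 (SE 0.21, adjusted p = 0.0125) against HGDMEM.

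The size for GPX4 depended on Plasmax 2. Without that library the log2 fold change of GPX4 was −1.10 against EMEM, −1.37 against LGDMEM and −1.18 against HGDMEM. The call against EMEM was lost without Plasmax 1 (adjusted p = 0.144), Plasmax 3 (0.147) or EMEM 1 (0.123), and that against HGDMEM without Plasmax 1 (0.0748), Plasmax 3 (0.0773) or HGDMEM 1 (0.0686). Plasmax 2 did not stand apart in general: of 3201 genes averaging 50 CPM or more, 7 were at least 1.8 times both other Plasmax libraries there, as against 6 in Plasmax 1 and 5 in Plasmax 3.

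GPX2, the gastrointestinal glutathione peroxidase that the liver also makes and a known target of the oxidant sensor NRF2, had 60.3, 48.5 and 57.5 CPM in Plasmax, against 73.3, 64.7 and 86.7 CPM in HGDMEM, 66.9, 82.8 and 48.5 CPM in LGDMEM and 58.3, 69.1 and 45.6 CPM in EMEM. Plasmax lay wholly below HGDMEM and overlapped with LGDMEM and EMEM. For GPX2 the log2 fold change was −0.06 (SE 0.20, adjusted p = 0.873, edgeR) against EMEM, −0.25 (SE 0.20, adjusted p = 0.394) against LGDMEM and −0.43 (SE 0.20, adjusted p = 0.113) against HGDMEM. A fit to the Plasmax and HGDMEM libraries alone called the last (adjusted p = 0.0379). The CHURC1 gene overlaps the 3′ end of GPX2 on the other strand, and whether counting used strand is not given in the sources used here.

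TXNRD1, the cytosolic thioredoxin reductase that regenerates thioredoxin with NADPH, was higher in Plasmax. It had 69.8, 75.8 and 71.7 CPM in Plasmax, against 44.4, 40.4 and 39.6 CPM in HGDMEM, 36.9, 58.4 and 34.2 CPM in LGDMEM and 49.8, 41.3 and 33.9 CPM in EMEM. No library of another medium reached the Plasmax range, although LGDMEM 2 stood above its replicates. For TXNRD1 the log2 fold change was 0.80 (SE 0.20, adjusted p = 0.00643, edgeR) against EMEM, 0.74 (SE 0.20, adjusted p = 0.0108) against LGDMEM and 0.80 (SE 0.19, adjusted p = 0.00487) against HGDMEM.

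MSRB1, which reduces methionine-R-sulfoxide in proteins, was lower in Plasmax. It had 54.0, 43.2 and 45.1 CPM in Plasmax, against 81.2, 82.9 and 79.5 CPM in HGDMEM, 83.0, 87.1 and 75.4 CPM in LGDMEM and 74.3, 63.2 and 83.7 CPM in EMEM. All Plasmax libraries lay below all others. For MSRB1 the log2 fold change was −0.64 (SE 0.15, adjusted p = 0.00468, edgeR) against EMEM, −0.79 (SE 0.15, adjusted p = 0.000947) against LGDMEM and −0.78 (SE 0.15, adjusted p = 0.000731) against HGDMEM.

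SELENOP, the selenium carrier secreted by hepatocytes, was the most abundant member in each of the 12 libraries. It had 507, 434 and 452 CPM in Plasmax, against 993, 941 and 1100 CPM in HGDMEM, 839, 814 and 1191 CPM in LGDMEM and 853, 890 and 925 CPM in EMEM. The highest Plasmax library lay far below the lowest library of any other medium. For SELENOP the log2 fold change was −0.94 (SE 0.13, adjusted p = 7.62e-05, edgeR) against EMEM, −1.03 (SE 0.13, adjusted p = 3.27e-05) against LGDMEM and −1.12 (SE 0.13, adjusted p = 8.93e-06) against HGDMEM. CCDC152 overlaps the 3′ end of SELENOP on the other strand.

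Genes that hepatocytes are known for moved with SELENOP, GPX4 and MSRB1. The 10 hepatocyte markers listed, all measured, summed to 12280 to 13865 CPM in Plasmax, against 24359 to 26740 CPM in HGDMEM, 21370 to 23861 CPM in LGDMEM and 22431 to 22966 CPM in EMEM. Against EMEM 6 of the 10 fell (12.1% of all genes did), among them albumin (ALB, log2 fold change −0.99, SE 0.10) and alpha-fetoprotein (AFP, −1.73, SE 0.12), and SERPINA1 rose (0.57, SE 0.10). Their part in the results for these members was not tested, and in bulk libraries fewer cells of a type and less RNA per cell cannot be told apart.

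SELENOW, a small cytosolic thiol protein whose mRNA is among those known to respond to selenium supply, showed the largest log2 fold change among the members called in all 3 comparisons. It had 129, 114 and 130 CPM in Plasmax, against 46.9, 46.8 and 48.2 CPM in HGDMEM, 49.5, 36.2 and 30.1 CPM in LGDMEM and 37.4, 52.7 and 55.7 CPM in EMEM. The lowest Plasmax library was above every library of the other media by a wide margin. For SELENOW the log2 fold change was 1.35 (SE 0.18, adjusted p = 3.94e-05, edgeR) against EMEM, 1.69 (SE 0.18, adjusted p = 4.09e-06) against LGDMEM and 1.39 (SE 0.18, adjusted p = 1.95e-05) against HGDMEM.

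SELENOH, a small nucleolar redox protein, was the scarcest member, with 8 to 52 reads per library. It had 6.18, 5.50 and 10.7 CPM in Plasmax, against 2.44, 4.80 and 3.60 CPM in HGDMEM, 4.80, 5.11 and 1.81 CPM in LGDMEM and 3.40, 1.78 and 2.31 CPM in EMEM. All Plasmax libraries lay above all others, by a small margin over LGDMEM and HGDMEM. For SELENOH the log2 fold change was 1.59 (SE 0.53, adjusted p = 0.0395, edgeR) against EMEM, 0.93 (SE 0.52, adjusted p = 0.22) against LGDMEM and 1.04 (SE 0.51, adjusted p = 0.149) against HGDMEM. The call against EMEM was lost without Plasmax 1 (adjusted p = 0.0547), Plasmax 3 (0.169), EMEM 1 (0.0543), EMEM 2 (0.122) or EMEM 3 (0.104). The TMX2-CTNND1 readthrough gene overlaps the 3′ end of SELENOH on the same strand and BTBD18 on the other, so its counts are uncertain.

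The endoplasmic reticulum members were called in no comparison. SELENOT, a thioredoxin-like protein of that membrane, had 90.2, 107 and 89.1 CPM in Plasmax, against 79.7, 85.4 and 89.5 CPM in HGDMEM, 76.7, 82.0 and 68.8 CPM in LGDMEM and 51.5, 75.5 and 87.1 CPM in EMEM. Plasmax lay above LGDMEM and EMEM without overlap and met HGDMEM at its upper end. For SELENOT the log2 fold change was 0.42 (SE 0.17, adjusted p = 0.0806, edgeR) against EMEM, 0.33 (SE 0.17, adjusted p = 0.172) against LGDMEM and 0.17 (SE 0.17, adjusted p = 0.486) against HGDMEM. Without EMEM 3, the difference from EMEM was called (0.58, adjusted p = 0.0327).

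SELENOK, a membrane protein that takes part in degradation of misfolded proteins and in protein palmitoylation, had 42.2, 38.9 and 43.2 CPM in Plasmax, against 40.5, 46.0 and 52.7 CPM in HGDMEM, 30.0, 59.0 and 56.6 CPM in LGDMEM and 48.8, 26.7 and 39.3 CPM in EMEM. The 3 Plasmax libraries were close together and lay inside the range of LGDMEM and of EMEM. For SELENOK the log2 fold change was 0.12 (SE 0.24, adjusted p = 0.774, edgeR) against EMEM, −0.23 (SE 0.24, adjusted p = 0.532) against LGDMEM and −0.16 (SE 0.24, adjusted p = 0.659) against HGDMEM. Of 11 measured partners in endoplasmic-reticulum-associated degradation, 0 rose and 1 fell in Plasmax against EMEM (9.09%, beside 22.1% of all genes), the ATPase VCP (log2 fold change −0.50, SE 0.11, adjusted p = 0.00362, edgeR). Against LGDMEM 0 rose and 2 fell (18.2%, beside 21.2%), and against HGDMEM 0 rose and 1 fell (9.09%, beside 26.9%).

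**Figure D2:**
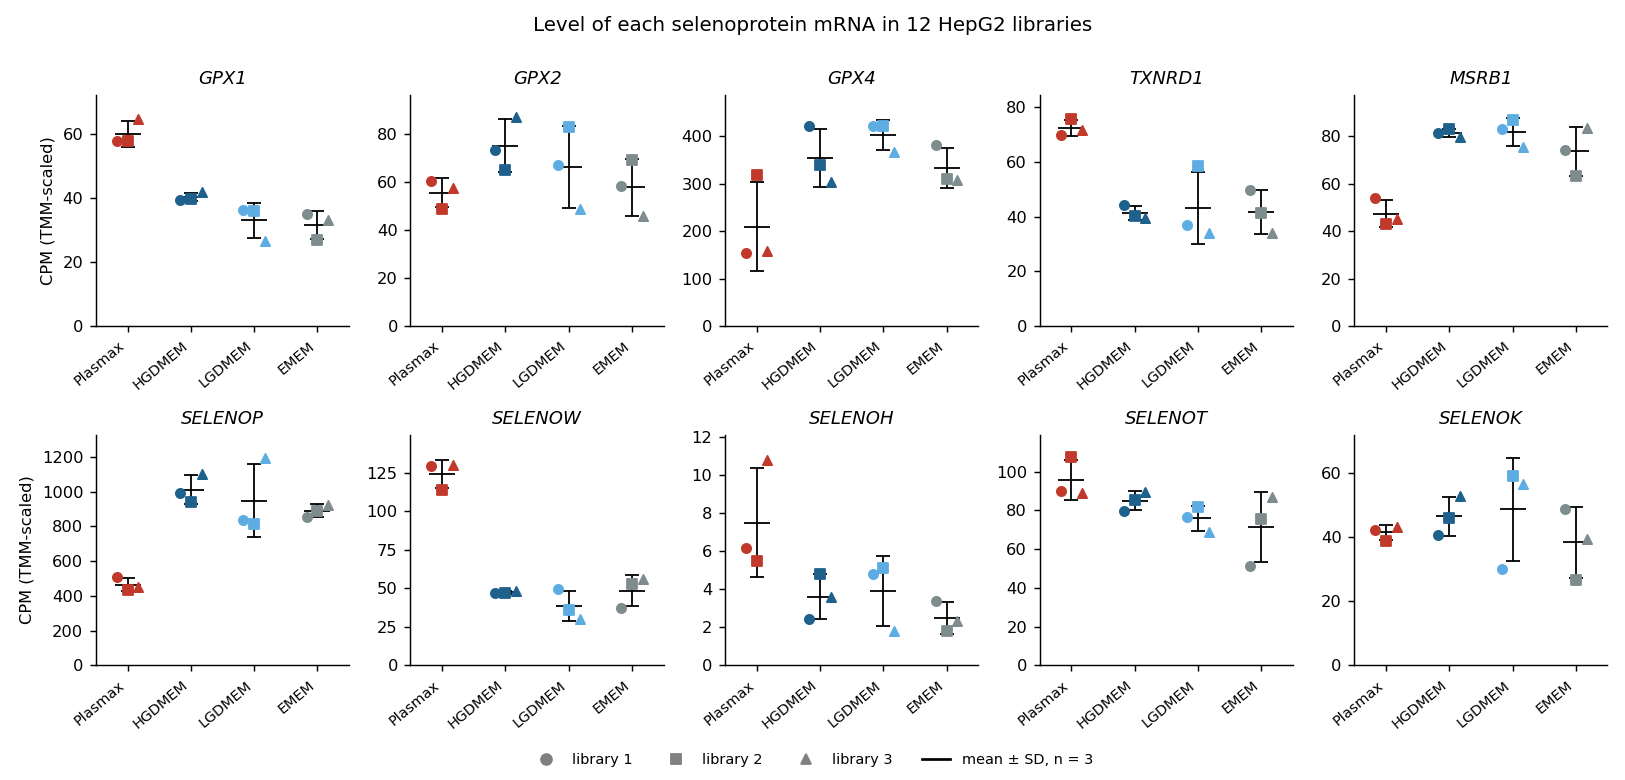
Level of each member in CPM (linear axis from 0, TMM-scaled) in the libraries of Plasmax, HGDMEM, LGDMEM and EMEM; marker shapes give the library number and bars the mean ± SD of 3 libraries. Plasmax stands wholly above the other media for GPX1, TXNRD1, SELENOW and SELENOH and wholly below them for SELENOP and MSRB1, and Plasmax 2 stands apart for GPX4.

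Counted by overlap, 7 members stood wholly apart between Plasmax and EMEM (39.4% of all genes did), 8 between Plasmax and LGDMEM (36.2%) and 7 between Plasmax and HGDMEM (42.6%). Those apart from all 3 media were GPX1, TXNRD1, SELENOW, SELENOH, SELENOP and MSRB1. For SELENOK, Plasmax overlapped with each of the other media.

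One further library stood apart in general. LGDMEM 3 had a score of −51.8 on the second principal component, where the other libraries lay between −11.0 and 14.7, and 38 of the 3201 genes were at least 1.8 times both other LGDMEM libraries. Without it, the members called in Plasmax against LGDMEM were again 3 higher and 3 lower, beside 1006 higher and 1259 lower among all genes. TXNRD1 was then closest to the threshold, with a log2 fold change of 0.60 (adjusted p = 0.043, edgeR), and that of SELENOP was −0.83 and that of SELENOW 1.54. In LGDMEM 1, 32 genes lay at least 1.8-fold below both other LGDMEM libraries, against 23 in LGDMEM 3. Leaving out LGDMEM 1 raised the genes called in LGDMEM against EMEM from 8 to 87. In HGDMEM against LGDMEM it raised them from 7 to 118, with 0 members called in either.

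Among the other 3 media the members showed no called difference. In LGDMEM against EMEM 0 members were called (0.0731% of all genes were), in HGDMEM against EMEM 0 (0.164%) and in HGDMEM against LGDMEM 0 (0.0640%). At an unadjusted p under 0.05 by edgeR the count was also 0 in each, and the share of all genes at that level is not given here. DESeq2 and limma voom called 0 members as well. Over all genes, in the same order of comparisons, DESeq2 called 65, 68 and 55 and limma voom 7, 21 and 4. With so few genes called, a count of 0 among 10 members says little about them.

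The largest member difference there by size was that of SELENOH, the scarcest, with a log2 fold change of 0.66 (SE 0.55) in LGDMEM against EMEM. For GPX1 it was 0.35 (SE 0.17, adjusted p = 0.684, edgeR) in HGDMEM against EMEM and 0.29 (SE 0.17, adjusted p = 0.739) in HGDMEM against LGDMEM, without overlap in either. SELENOP also stood apart between HGDMEM and EMEM, with a log2 fold change of 0.19 (SE 0.13, adjusted p = 0.812, edgeR). The members apart by overlap were 0 in LGDMEM against EMEM (12.0% of all genes), 2 in HGDMEM against EMEM (15.0%) and 1 in HGDMEM against LGDMEM (11.7%). A difference below the threshold does not show that the media act alike.

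Because SELENOP and GPX4 are the most abundant members and both fell, the family's summed level followed them. A 3′ library yields about 1 fragment per transcript whatever its length, so the CPM of the members are added here without dividing by length. The sum over the 10 members was 1178 ± 60.9 CPM in Plasmax, 1786 ± 83.6 CPM in HGDMEM, 1741 ± 138 CPM in LGDMEM and 1588 ± 28.8 CPM in EMEM (SD, n = 3 each). Every Plasmax library lay below every other library in this sum.

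Without SELENOP alone the members summed to 714 ± 81.7 CPM in Plasmax and 698 ± 37.6 CPM in EMEM (SD, n = 3 each). That sum was 774 ± 47.5 CPM in HGDMEM and 793 ± 80.0 CPM in LGDMEM, and Plasmax overlapped with each of these media. In this sum without SELENOP alone, the mean of Plasmax already lay above that of EMEM. GPX4, which also fell, was left out next, and leaving out members that fell favours Plasmax in the remaining sum. The 8 remaining members summed to 504 ± 11.5 CPM in Plasmax, 420 ± 18.6 CPM in HGDMEM, 391 ± 52.6 CPM in LGDMEM and 365 ± 13.4 CPM in EMEM (SD, n = 3 each), with every Plasmax library above every other. SELENOP made up 39.5 ± 4.24% of the members' CPM in Plasmax, 56.6 ± 2.70% in HGDMEM, 54.1 ± 7.61% in LGDMEM and 56.0 ± 2.14% in EMEM. These sums rest on the choice of members and were not tested.

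**Figure D3:**
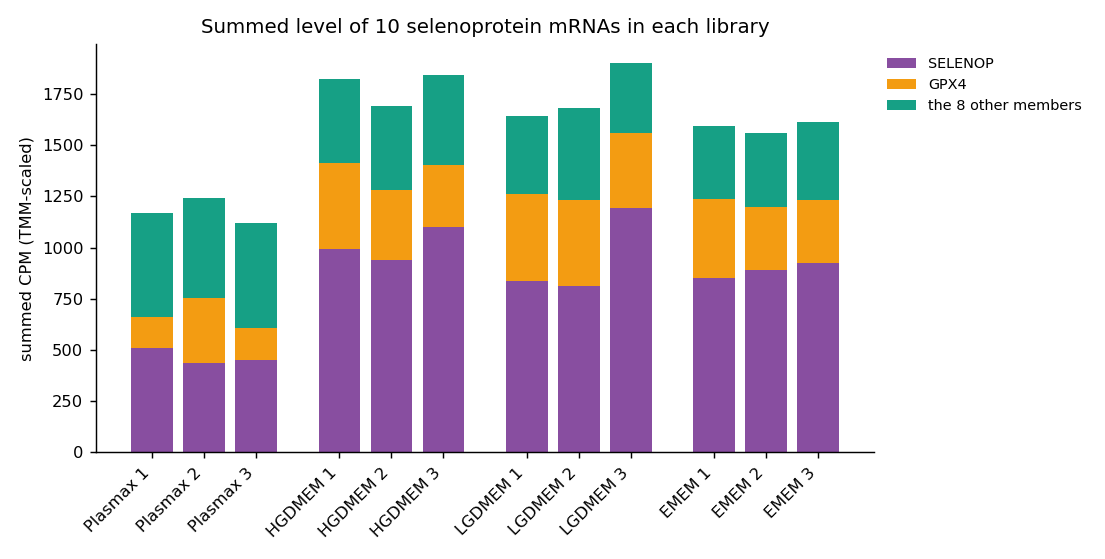
Summed CPM (TMM-scaled) of the 10 members in each library, split into SELENOP, GPX4 and the 8 other members. The Plasmax bars reach 1121 to 1242 CPM, below all others, while their part for the 8 other members is the tallest.

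Where the selenocysteine codon lies differed among members, and it was set beside the direction of change as a description. In 7 members the first such codon lies more than 55 bases upstream of the last exon junction, the distance at which a stop codon is commonly taken to expose an mRNA to nonsense-mediated decay. The distance was 105 bases in GPX1, 102 in GPX2, 342 in GPX4, 357 in SELENOP, 243 in SELENOW, 267 in SELENOH and 470 in SELENOT. It was 34 bases in MSRB1 and 5 in SELENOK, and in TXNRD1 the codon is in the last exon.

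Members on either side of that distance changed in either direction. Of the 7 with the longer distance, GPX1 and SELENOW rose against all 3 media, SELENOH rose against EMEM, GPX4 and SELENOP fell against all 3, and GPX2 and SELENOT were not called. Of the other 3, TXNRD1 rose, MSRB1 fell and SELENOK was not called.

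Of 13 measured factors of nonsense-mediated decay, 3 rose and 1 fell in Plasmax against EMEM (30.8%, beside 22.1% of all genes). Against LGDMEM 1 rose and 1 fell (15.4%, beside 21.2%), and against HGDMEM 4 rose and 2 fell (46.2%, beside 26.9%). Among those that rose against EMEM were the kinase SMG1 (log2 fold change 0.80, SE 0.25, adjusted p = 0.0281, edgeR) and UPF3B (0.70, SE 0.21, adjusted p = 0.0226). RBM8A, of the exon junction complex, fell (−0.53, SE 0.15, adjusted p = 0.0173). The median log2 fold change of the 13 against EMEM was 0.20, beside 0.02 over all genes, and their part in the members' differences was not tested.

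**Figure D4:**
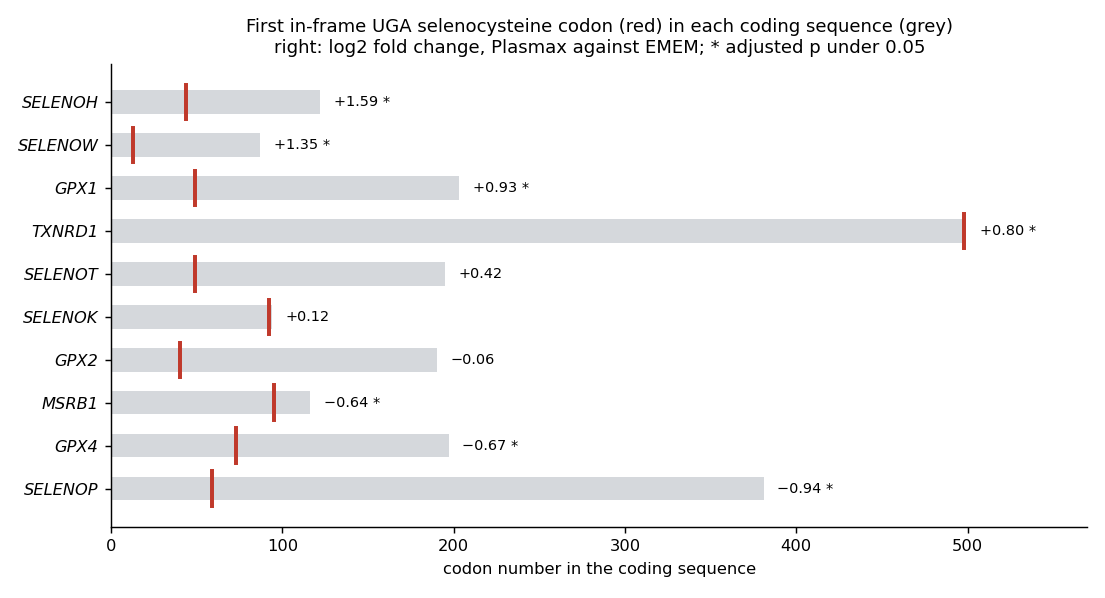
Position of the first selenocysteine codon (red) along the coding sequence (grey, in codons) of each member, ordered by log2 fold change of Plasmax against EMEM, which is printed at the right with an asterisk for an adjusted p under 0.05. The codon is near the end in TXNRD1 (498 of 499) and SELENOK (92 of 94) and early in SELENOW (13 of 87), and early and late codons stand on both sides of 0.

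The 10 other selenoproteins measured went mainly one way. In Plasmax 0 rose and 4 fell against each of the other media. Over all genes 10.0% rose and 12.1% fell against EMEM, 9.48% and 11.7% against LGDMEM, and 12.8% and 14.1% against HGDMEM. Their median log2 fold change was −0.52 against EMEM, −0.75 against LGDMEM and −0.60 against HGDMEM. Over all 20 measured selenoproteins, 4 rose and 7 fell against EMEM (55% called, beside 22.1% of all genes). Against LGDMEM 3 rose and 7 fell (50%, beside 21.2%), and against HGDMEM 3 rose and 7 fell (50%, beside 26.9%). GPX6, DIO2, DIO3, SELENOM and SELENOV were not analysed here.

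GPX3, the glutathione peroxidase secreted into plasma, fell in Plasmax, unlike GPX1. It had 23.5, 27.1 and 34.9 CPM in Plasmax, against 96.6, 99.3 and 119.9 CPM in HGDMEM, 128.0, 101.2 and 101.7 CPM in LGDMEM and 122.1, 84.4 and 86.5 CPM in EMEM. The groups were far from overlapping. For GPX3 the log2 fold change was −1.77 (SE 0.19, adjusted p = 2.55e-06, edgeR) against EMEM, −1.95 (SE 0.19, adjusted p = 9.87e-07) against LGDMEM and −1.88 (SE 0.19, adjusted p = 8.64e-07) against HGDMEM.

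SEPHS2, the selenoprotein that makes the selenophosphate used to build selenocysteine, also fell. It had 199.8, 182.0 and 141.6 CPM in Plasmax, against 262.4, 281.9 and 298.6 CPM in HGDMEM, 281.9, 266.6 and 389.2 CPM in LGDMEM and 262.1, 297.6 and 268.4 CPM in EMEM. All Plasmax libraries lay below all others, at a log2 fold change of −0.66 (SE 0.15, adjusted p = 0.00424, edgeR) against EMEM, −0.84 (SE 0.15, adjusted p = 0.000694) against LGDMEM and −0.69 (SE 0.15, adjusted p = 0.0025) against HGDMEM.

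The scarce DIO1, the deiodinase that turns thyroxine into its active form, had 2, 8 and 0 reads in the Plasmax libraries, against 57, 57 and 54 reads in HGDMEM, 47, 35 and 28 reads in LGDMEM and 10, 11 and 28 reads in EMEM. It fell against EMEM (adjusted p = 0.025, edgeR), LGDMEM (adjusted p = 0.00102) and HGDMEM (adjusted p = 0.000301). In CPM the EMEM libraries lay between those of Plasmax and of both DMEM media, and HGDMEM against EMEM was not called (log2 fold change 1.61, SE 0.56, adjusted p = 0.429).

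TXNRD3, a thioredoxin reductase best known from testis, had 0.62 to 3.22 CPM in Plasmax, 5.50 to 12.9 CPM in HGDMEM, 2.75 to 8.15 CPM in LGDMEM and 5.70 to 8.84 CPM in EMEM. It fell against EMEM (log2 fold change −1.72, SE 0.55, adjusted p = 0.0325, edgeR) and HGDMEM (−2.02, SE 0.55, adjusted p = 0.0104) and was not called against LGDMEM (−1.33, SE 0.56, adjusted p = 0.103). SELENOS, a partner of the degradation machinery at the endoplasmic reticulum, fell against LGDMEM (−0.66, SE 0.20, adjusted p = 0.0213, edgeR). It missed the threshold against EMEM (−0.55, SE 0.20, adjusted p = 0.0511) and HGDMEM (−0.52, SE 0.20, adjusted p = 0.0556), although no libraries overlapped in either.

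The remaining 5 were called in no comparison with Plasmax. Against EMEM the log2 fold change was 0.71 (SE 0.40) for TXNRD2, the mitochondrial thioredoxin reductase, and 0.10 (SE 0.18) for SELENOF, an endoplasmic reticulum folding factor. It was −0.18 (SE 0.18) for SELENOI, a phospholipid synthesis enzyme, −0.14 (SE 0.28) for SELENON, a calcium-handling protein of the endoplasmic reticulum, and −0.48 (SE 0.59) for SELENOO, a mitochondrial AMPylating enzyme.

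**Figure D5:**
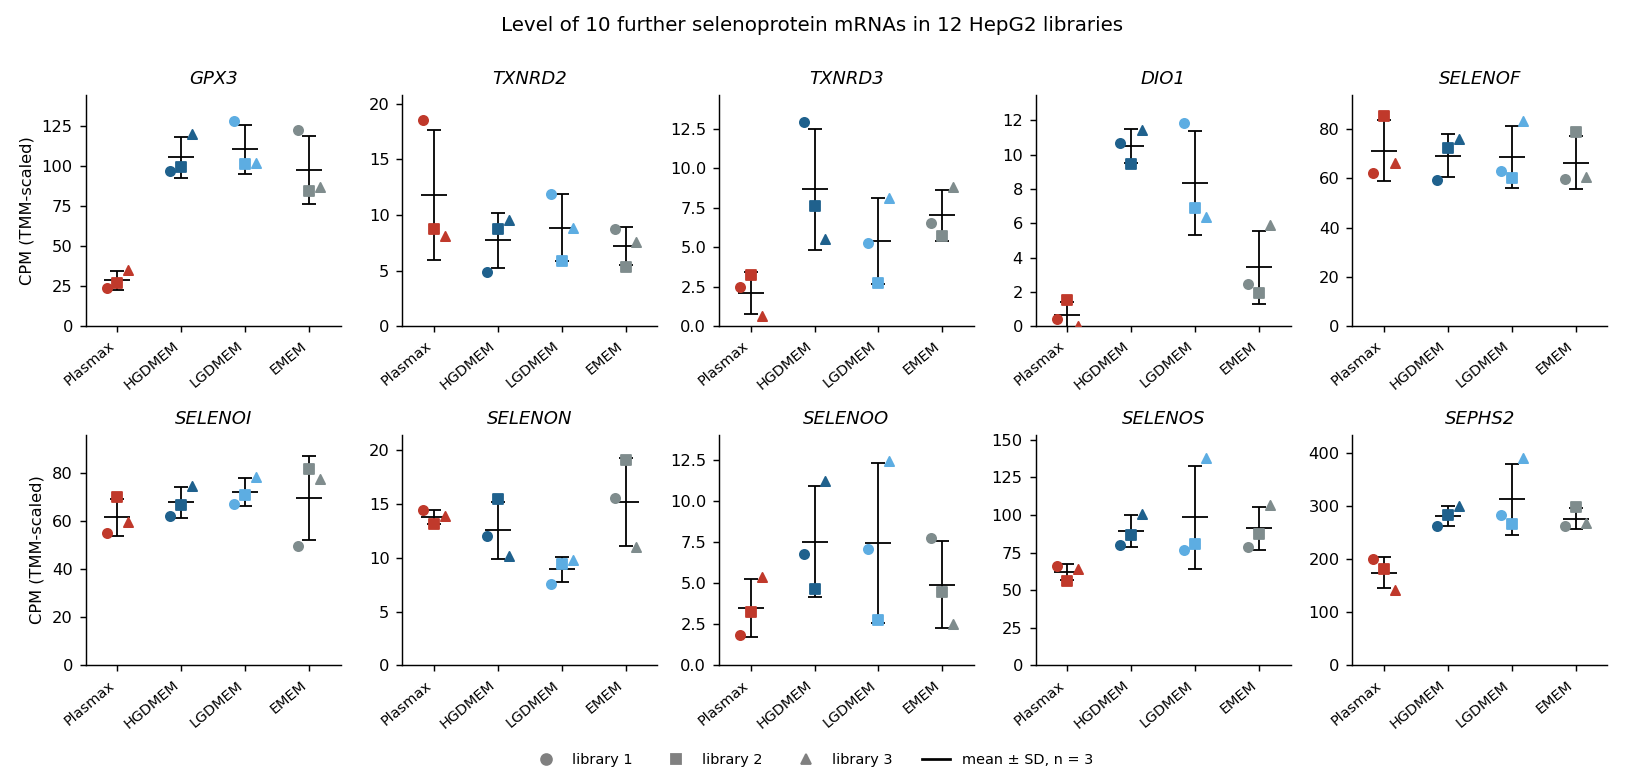
Level of the 10 further selenoproteins in CPM (linear axis from 0, TMM-scaled) in the libraries of Plasmax, HGDMEM, LGDMEM and EMEM, drawn with marker shapes for the library number and bars for the mean ± SD of 3 libraries. GPX3, SEPHS2, SELENOS and DIO1 stand wholly below the other media in Plasmax, while TXNRD2, SELENOF, SELENOI and SELENOO overlap.

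Of 12 measured factors of selenocysteine synthesis and insertion, 2 rose and 0 fell in Plasmax against EMEM (16.7%, beside 22.1% of all genes), 0 were called against LGDMEM (beside 21.2%) and 1 rose against HGDMEM (8.33%, beside 26.9%). SEPHS2, which also serves this synthesis and fell against each of the other media, is counted with the selenoproteins and not among the 12. Their median log2 fold change against EMEM was 0.28, and their median absolute log2 fold change was 0.43, beside 0.38 over all genes. SARS, the cytosolic seryl-tRNA synthetase that also charges the selenocysteine transfer RNA, averaged 65.1 ± 6.82 CPM in Plasmax, 32.7 ± 5.39 CPM in HGDMEM, 45.3 ± 17.3 CPM in LGDMEM and 29.9 ± 2.93 CPM in EMEM (SD, n = 3 each). It rose against EMEM (log2 fold change 1.12, SE 0.23, adjusted p = 0.00168, edgeR) and HGDMEM (0.99, SE 0.22, adjusted p = 0.00299). SECISBP2, which binds the SECIS element, rose against EMEM (0.81, SE 0.28, adjusted p = 0.0463, edgeR).

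Genes of selenium uptake and handling went both ways. Of 6 measured, 2 were higher and 2 lower in Plasmax against EMEM (all genes 22.1% called), 1 higher and 2 lower against LGDMEM (21.2%), and 2 higher and 2 lower against HGDMEM (26.9%). LRP8, the receptor known from mice to take up SELENOP in brain and testis, had 7.82 ± 1.05 CPM in Plasmax, 21.9 ± 3.17 CPM in HGDMEM, 19.4 ± 4.90 CPM in LGDMEM and 17.3 ± 4.25 CPM in EMEM (SD, n = 3 each). It fell against EMEM (log2 fold change −1.14, SE 0.28, adjusted p = 0.00603, edgeR), LGDMEM (−1.31, SE 0.28, adjusted p = 0.00227) and HGDMEM (−1.48, SE 0.27, adjusted p = 0.000562). LRP1, a large endocytic receptor of the same family, rose against EMEM (0.96, SE 0.14, adjusted p = 8.4e-05, edgeR).

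The pair of other called genes in that list were SELENBP1 and CTH. SELENBP1, a selenium-binding protein that has no selenocysteine, fell against EMEM (log2 fold change −0.84, SE 0.27, adjusted p = 0.0326, edgeR). CTH, which splits cystathionine and can release selenium from selenomethionine metabolites, rose (1.98, SE 0.37, adjusted p = 0.000914).

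TXNRD1 and GPX2 are also known targets of NRF2, the transcription factor that responds to oxidants. Of 16 measured NRF2 targets without selenocysteine, 2 rose and 7 fell in Plasmax against EMEM, where 10.0% of all genes rose and 12.1% fell. Against LGDMEM 1 rose and 9 fell (all genes 9.48% and 11.7%), and against HGDMEM 3 rose and 6 fell (all genes 12.8% and 14.1%). Their median log2 fold change against EMEM was −0.38. SLC7A11, the cystine importer, rose most against EMEM (2.22, SE 0.26, adjusted p = 8.71e-06, edgeR). AKR1C2 (−1.08, SE 0.17, adjusted p = 0.000219), AKR1C1 (−0.80, SE 0.19, adjusted p = 0.00484) and TALDO1 (−0.75, SE 0.13, adjusted p = 0.000463) fell, the first pair being aldo-keto reductases with closely similar sequences between which reads may be shared.

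The promoters of TXNRD1 and GPX2 are shown because both genes are taken as NRF2 targets while they differ in these data. The sequences are RefSeq promoters on GRCh38.p14, 250 bases before to 50 after the start, 5′ to 3′ on the gene's strand, at chr12:104215529-104215828 (plus strand) for TXNRD1 and chr14:64942696-64942995 (minus strand) for GPX2. Capitals mark TGACNNNGC, the core of the antioxidant response element, searched on both strands.
TXNRD1: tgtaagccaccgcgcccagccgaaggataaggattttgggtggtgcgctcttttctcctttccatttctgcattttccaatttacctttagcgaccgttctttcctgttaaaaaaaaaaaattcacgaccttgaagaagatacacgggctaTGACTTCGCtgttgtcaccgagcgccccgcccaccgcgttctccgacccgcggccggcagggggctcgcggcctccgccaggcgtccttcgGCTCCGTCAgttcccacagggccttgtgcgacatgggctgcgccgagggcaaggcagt
GPX2: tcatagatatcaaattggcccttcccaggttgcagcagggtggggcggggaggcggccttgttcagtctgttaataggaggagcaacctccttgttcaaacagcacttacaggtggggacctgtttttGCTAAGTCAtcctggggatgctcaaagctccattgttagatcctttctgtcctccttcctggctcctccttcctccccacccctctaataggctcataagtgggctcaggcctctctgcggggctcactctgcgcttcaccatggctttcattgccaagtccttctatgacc

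The motif was found 2 times in this TXNRD1 promoter, 1 time in a second TXNRD1 promoter and 1 time in that of GPX2. SELENOP and SELENOK promoters held it as well, so 4 of the 10 members had it in 5 of 13 member promoters, beside 13.3% of 35116 RefSeq promoters of the same length. A match is a description of letters and not evidence of a bound site.

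Redox enzymes without selenocysteine were set beside the members: peroxidases, catalase, thiol and methionine sulfoxide redox enzymes and superoxide dismutases. Of 18 measured, 0 rose and 2 fell in Plasmax against EMEM (11.1%, beside 22.1% of all genes), 2 rose and 4 fell against LGDMEM (33.3%, beside 21.2%), and 2 rose and 6 fell against HGDMEM (44.4%, beside 26.9%). The share called was thus below that of all genes against EMEM and above it against the other media, and that difference was not tested. The called genes against EMEM were PRDX1, a thioredoxin-dependent peroxidase (log2 fold change −1.02, SE 0.11, adjusted p = 2.78e-06, edgeR), and the catalase gene CAT (−0.86, SE 0.18, adjusted p = 0.00185). The median log2 fold change of the 18 against EMEM was −0.15.

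Among members, the profiles over the 4 media that were most alike were those of GPX4 and MSRB1, with a root-mean-square difference of 0.088 between centred mean log2 CPM, followed by GPX2 and SELENOK (0.108), GPX4 and SELENOP (0.131), SELENOP and MSRB1 (0.134) and GPX1 and TXNRD1 (0.135). By the same measure, over 7834 other genes averaging 10 CPM or more, the nearest to TXNRD1 were SMG1 (0.0072), TMEM59 (0.0098) and BLOC1S2 (0.022). The nearest to SELENOP were GPN3 (0.023), SNRPD3 (0.031) and TRMU (0.037). For GPX4 they were EIF2AK3 (0.029), SHROOM1 (0.029) and ATF5 (0.034), and for GPX1 CLCN7 (0.036), LRP1 (0.039) and EPS15 (0.040). With 4 points per profile such distances describe likeness in these media alone.

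The libraries held 3995365 to 5840057 counts on rows with a symbol. Mitochondrially encoded transcripts took 12.3% to 14.1% of them in Plasmax, 10.3% to 11.9% in HGDMEM, 9.80% to 12.2% in LGDMEM and 10.2% to 12.3% in EMEM, and their part in the members' differences was not tested. Of 6 leukocyte markers 4 were measured, summing to 2163 to 2376 CPM in Plasmax and 2792 to 3485 CPM in EMEM, nearly all from the lysozyme gene LYZ, and the defining PTPRC and CD3E were not analysed here. Of 8 endothelial and stromal markers 3 were measured, summing to 69.4 to 94.9 CPM in Plasmax and 43.9 to 59.5 CPM in EMEM, mostly from ACTA2. Against EMEM ACTA2 rose (log2 fold change 0.81, SE 0.24, adjusted p = 0.0202, edgeR) and the scarce PDGFRB fell (−1.59, SE 0.50, adjusted p = 0.029). COL1A1, also scarce, was not called (0.78, SE 0.72, adjusted p = 0.481). The labelled hepatic line was borne out by ALB, at 4259 ± 338 CPM in Plasmax, 10934 ± 767 CPM in HGDMEM, 9464 ± 1046 CPM in LGDMEM and 8453 ± 261 CPM in EMEM (SD, n = 3 each). Processed pseudogenes are annotated for GPX1, SELENOW, SELENOT, SELENOK and MSRB1 in GENCODE and none has a row in the table, so reads shared with them cannot be told apart.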

How the data were processed

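For 12 HepG2 libraries the authors deposited raw whole-number counts in 1 table, made from QuantSeq 3′ mRNA libraries per the labels' protocols. The submitters' processing notes name hg19/GRCh37, STAR 2.7.5b, featureCounts 1.6.3, cutadapt 1.16, FastQC 0.72 and limma 3.40.6 without their roles. In every row the third highest library reached at least 2.51 CPM, so low rows were absent from the table and its totals are not full depth. Of 11546 rows, 601 without a symbol (2.92% to 3.71% of a library's counts) were left out, leaving 10945.

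The test on these counts was that of edgeR 4.0.16, R 4.3.3 (quasi-likelihood, TMM, all 12 libraries, no block, Benjamini-Hochberg over all genes at 0.05), in 6 pairwise comparisons and 1 test over the media. The code was tested on simulated data. SE is the absolute log2 fold change over the square root of F. Profiles used log2 CPM with a prior count of 2. Members and lists were chosen with earlier results of these data known. Genes named outside the members and other selenoproteins are, per list, up to 4 called with the largest change against EMEM, the label checks ALB, AFP and detected markers, and the nearest profiles; 1 gene that this rule takes is not reported here. SERPINA1 and the overlapping genes were named after their values were seen.

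Same-numbered libraries were checked for pairing over 4366 genes with mean log2 CPM above 5. Correlations above 0.1 for all 3 numbers occurred for HGDMEM with LGDMEM (0.246, 0.165 and 0.21) and for HGDMEM with EMEM (0.186, 0.11 and 0.124). They occurred in no comparison with Plasmax. The values given for these pairs of media come from the fit without a block, and the block was run as an alternative. No 2 libraries agreed within sampling noise. Alternatives were RLE and library-size scaling, a mean of at least 5 CPM, no filter, DESeq2 1.42.0 and limma voom 3.58.1. Others were the compared libraries alone, the replicate block, an adjusted p of 0.01 and leaving out each library. The filter of the main fit for low counts removed 0 rows, so the setting without a filter repeated the main fit.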

Additional observations from a re-analysis of the deposited data

How the results depend on the processing

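Under the alternatives run, the members called higher in Plasmax numbered 3 to 4 against EMEM, 2 to 3 against LGDMEM and 2 to 3 against HGDMEM. Those called lower numbered 2 to 3 against EMEM, 3 against LGDMEM and 2 to 4 against HGDMEM, and over the 4 media 5 to 6 were called. Among all genes tested, 1290 to 2687 were called against EMEM, 1254 to 2568 against LGDMEM and 1711 to 3199 against HGDMEM in these alternatives. Over the 4 media 1419 to 3087 genes were called. SELENOH could not be tested in the alternative that required a mean of 5 CPM, which left 3 members higher against EMEM. Between the other media 0 members were called in every alternative; of 30 such log2 fold changes 14 changed sign in at least 1 alternative, all below the threshold. Of the values for Plasmax, 2 uncalled ones against EMEM changed sign: GPX2 to 0.03 without Plasmax 2 and 0.10 without EMEM 2, and SELENOK to −0.086 without EMEM 2. Leaving out 1 library at a time, GPX2 ranged from −0.20 to 0.10 and SELENOK from −0.086 to 0.33. With the replicate number as a block, SELENOH against EMEM was no longer called (log2 fold change 1.59, adjusted p = 0.0558, edgeR), so the block gave 3 members higher in place of 4. The block changed no other member's call, including in HGDMEM against LGDMEM and against EMEM, where same-numbered libraries were correlated. At an adjusted p of 0.01 the calls of GPX4 and SELENOH against EMEM, TXNRD1 against LGDMEM and GPX1 and GPX4 against HGDMEM were lost. Calls that rest on single libraries concern GPX1, GPX4 and SELENOH and are given with those genes. With 8 to 52 reads per library, SELENOH had the largest SE of the members, and the 3 libraries per medium limit all members.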
